A study of Homo sapiens with 4 samples.

Results

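The genes described here are 33 genes of nucleolar ribosome biogenesis, taken by symbol from a table of 60651 gene IDs counted in 1287 single cells. All 33 were in the table. They were picked for their function, as genes driven by MYC proteins in a line with amplified MYCN, by a rule that uses no measured value, although earlier results of these data were known when it was written. The cells were CHP134, a human neuroblastoma line that carries amplified MYCN. One sample each was exposed for 24 h to 5 µM 13cRA (13-cis retinoic acid, isotretinoin, a retinoid given to neuroblastoma patients), to 10 µM doxazosin (a blocker of alpha-1 adrenergic receptors), to both drugs at the same doses, or to 0.04% DMSO, the vehicle. Whether the drug-treated cells also received DMSO is not given in the sources used here. Each treatment was 1 sample, so no difference below has a replicate check and no test was possible. Every interval of a level, difference or share covers only counting error or, for shares of cells, the sampling of cells. The libraries held full-length cDNA without molecular identifiers, so amplified copies of a molecule are counted as reads, and the counting intervals are too narrow as a measure of molecules.

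Ribosomes are built in the nucleolus. RNA polymerase I transcribes the ribosomal DNA, small nucleolar ribonucleoproteins (snoRNPs) modify the precursor RNA, and assembly factors cut and fold it into the small and the large subunit. MYC and MYCN bind the promoters of many of these genes, and high nucleolar output is a known trait of MYCN-amplified neuroblastoma. The 33 genes fall into 7 roles, which are 5 genes of RNA polymerase I and rDNA transcription, 3 of box C/D snoRNPs, 3 of box H/ACA snoRNPs, 4 nucleolar organisers and chaperones, 8 of small subunit processing, 8 of large subunit assembly and 2 DEAD-box helicases.

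MYC family proteins bind the letters CACGTG, the canonical E-box, which read the same on both strands. RefSeq promoter windows of 300 bases, 250 before and 50 after the transcription start (GRCh38.p14), were at hand for 26 of the 33 members. The other members are BOP1, RRS1, RRP12, TCOF1, NOLC1, NOP58 and DDX18. CACGTG stood in a window of 12 of the 26 members, 46.2%, against 13.8% of the 7716 tested genes with a window and 8.77% of all 27305 genes with a window. In 9 of the 12 it lay wholly within the first 50 bases from the RefSeq start, which was the case for 34.6% of the 26 members and for 1.78% of the 7716 tested genes. The 30 bases from that start lay in a GENCODE 29 transcript of the gene for 20 of the 26 members, so positions depend on the annotation. This split at the start site was chosen after the positions were seen. The members were picked as genes driven by MYC proteins, so these contrasts with all genes are not independent of that choice. The 12 members were FBL, GAR1, GNL3, PES1, NOP2, BYSL, PNO1, WDR43, RRP9, UTP20, DDX21 and MYBBP1A. Of these, 8 are printed below because their levels are described later or because they show the 2 arrangements, after the start and at or before it. Each line gives 30 bases from 5′ to 3′ on the strand of the gene, with CACGTG in capitals.
FBL: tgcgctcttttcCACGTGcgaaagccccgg
GNL3: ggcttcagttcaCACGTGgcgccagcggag
PES1: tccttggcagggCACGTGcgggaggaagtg
PNO1: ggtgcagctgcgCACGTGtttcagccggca
WDR43: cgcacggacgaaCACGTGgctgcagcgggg
MYBBP1A: ggggccggagcaCACGTGtttcgtgtttcg
RRP9: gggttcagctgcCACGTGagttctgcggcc
UTP20: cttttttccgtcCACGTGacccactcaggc

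The FBL stretch is chr19:39846356-39846385 on the minus strand, and its E-box begins at transcribed base 7. The GNL3 stretch is chr3:52686026-52686055 on the plus strand, with the E-box also from base 7. The PES1 stretch, chr22:30591880-30591909 on the minus strand, has it from base 14, and the MYBBP1A stretch, chr17:4555340-4555369 on the minus strand, from base 28. The E-boxes of PNO1 (chr2:68157885-68157914, plus strand) and WDR43 (chr2:28894658-28894687, plus strand) begin at bases 10 and 4. The E-box of RRP9 (chr3:51941892-51941921, minus strand) spans the start site, and that of UTP20 (chr12:101280083-101280112, plus strand) begins 10 bases before it. The related letters CACGCG, searched on both strands (CACGCG or CGCGTG, whose matches can overlap each other), stood in the windows of 7 of 26 members, 26.9%, against 23.9% of tested genes. A match is a description of letters and not of binding.

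After leaving out cells with under 500 genes or over 25% mitochondrial counts, 318 cells of the 13cRA sample, 239 of the doxazosin sample, 287 of the 13cRA+doxazosin sample and 353 of the DMSO sample remained. Their counts summed to 22636509, 46171287, 72192743 and 48164169 in the same order. The 13cRA library stood apart. Thinned to 34000 counts, its cells held a median of 3896 genes, against 4772 in doxazosin, 4721.5 in 13cRA+doxazosin and 4687.5 in DMSO cells. No cell name was shared by 2 libraries. Of 8 neuroblastoma markers 6 reached a mean of 5 CPM (counts scaled to a library total of 1000000), while TH, which encodes tyrosine hydroxylase, was at 0 in the 13cRA+doxazosin and DMSO samples and DBH, which encodes dopamine beta-hydroxylase, was at 0 in the 13cRA and doxazosin samples. Markers of other cell types were scarce, with summed levels of 67.1 to 86.3 CPM for 6 fibroblast markers, 5.76 to 23.2 CPM for 5 endothelial, 1.10 to 10.4 CPM for 6 Schwann cell, 0.36 to 1.13 CPM for 5 leukocyte and 1.02 to 1.81 CPM for 4 epithelial markers. The largest values of the endothelial and Schwann cell lists were in the 13cRA sample, and their part in the results was not tested.

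Per length, the most abundant member in DMSO cells was NPM1 at 681 CPM per kb of exon, followed by NCL at 187, NHP2 at 143, FBL at 124, NOP16 at 109 and NOLC1 at 101 CPM per kb. At the low end stood RRP12 at 1.497 and MYBBP1A at 2.28 CPM per kb. NOP2, an rRNA methyltransferase of the large subunit pathway, had 0.30 to 1.55 CPM in the 4 samples and was the 1 member below the mean of 5 CPM required for a comparison. In GENCODE 29, 54.4% of the exon bases of NOP2 are shared with another annotated gene, so its reads may not have been assigned to it. The remaining 32 members were among 9573 genes compared. Together the 33 members made up 8639 CPM of the 13cRA sample, 7897 CPM of the doxazosin sample and 7826 CPM of the 13cRA+doxazosin sample, against 8358 CPM of the DMSO sample.

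**Figure D1:**
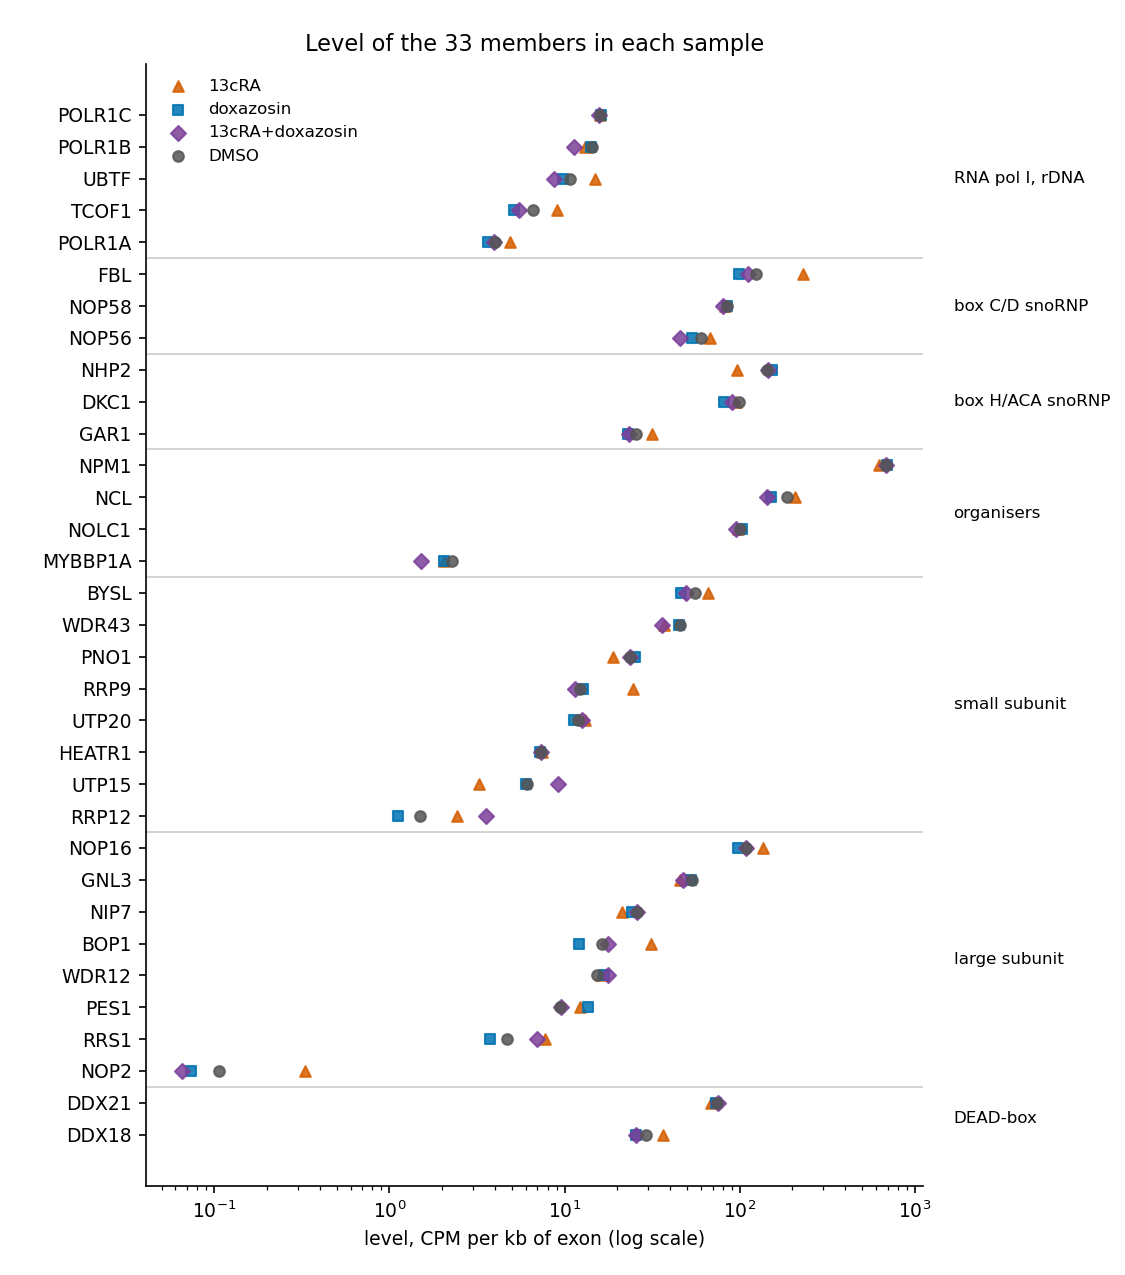
Level of each of the 33 members in the 4 samples, in CPM per kb of exon on a log axis, grouped by role, with 1 point per sample. NPM1 lies at the top with 681 CPM per kb in DMSO, and NOP2 lies below all other members.

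The organisers and chaperones were the most abundant role. NPM1, nucleophosmin, a chaperone of ribosome assembly, had 2384 CPM in 13cRA (95% counting interval 2364 to 2404), 2664 CPM in doxazosin (2649 to 2679) and 2628 CPM in 13cRA+doxazosin cells (2616 to 2640), against 2608 CPM in DMSO cells (2594 to 2622). Its log2 differences from DMSO were −0.13, 0.03 and 0.01 in 13cRA, doxazosin and 13cRA+doxazosin cells, and 49 annotated pseudogenes with its name held 3.08% of the counts of NPM1 and these copies together, so its reads may have been split. NCL, nucleolin, which acts in rDNA transcription and early rRNA processing, had 1433 CPM in 13cRA cells (1418 to 1449), 1040.0 CPM in doxazosin cells (1031 to 1049) and 999 CPM in 13cRA+doxazosin cells (992 to 1006), against 1293 CPM in DMSO cells (1283 to 1303). Both doxazosin samples were lower for NCL than both samples without it, on CPM as under the TMM and DESeq2 scaling factors described with the comparisons below. NOLC1, a chaperone of snoRNPs, had 388, 407 and 380.4 CPM in 13cRA, doxazosin and 13cRA+doxazosin cells, against 401 CPM in DMSO cells. MYBBP1A, a nucleolar repressor of rDNA transcription, had 12.7, 12.8 and 9.39 CPM in the same drug samples, against 14.1 CPM in DMSO cells.

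FBL had the widest range of the box C/D genes. FBL, fibrillarin, the methyltransferase that acts with box C/D guide RNAs, had 497 CPM in 13cRA cells (488 to 506), 217 CPM in doxazosin cells (212 to 221) and 242 CPM in 13cRA+doxazosin cells (238 to 246), against 270.2 CPM in DMSO cells (266 to 275). The 13cRA sample alone was high. NOP56, a core protein of the same particles, had 365 CPM in 13cRA, 288 CPM in doxazosin and 246 CPM in 13cRA+doxazosin cells, against 326 CPM in DMSO cells. For NOP56, 18.7% of the 13cRA counts came from 1 cell, and without the top cell of each sample it had 299 CPM in 13cRA cells, against 321 CPM in DMSO cells. NOP58, its partner, lay between 267 and 280 CPM in the 4 samples. In box H/ACA particles, the RNAs guide pseudouridylation. Among the proteins of these particles, NHP2 had 146 CPM in 13cRA cells (141 to 151), 232 CPM in doxazosin cells (227 to 236) and 218 CPM in 13cRA+doxazosin cells (215 to 222), against 216 CPM in DMSO cells (212 to 220.2). The 13cRA sample alone was low for NHP2. In GENCODE 29, 27.4% of the exon bases of NHP2 are shared with RMND5B, whose counting was not separated here. DKC1, dyskerin, the pseudouridine synthase, lay between 343 and 416 CPM, and GAR1, a core protein of the particles, between 47.0 and 64.2 CPM.

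RNA polymerase I and its factors were lower in abundance. POLR1A, the largest subunit, had 65.9 CPM in 13cRA, 49.4 CPM in doxazosin and 53.5 CPM in 13cRA+doxazosin cells, against 54.1 CPM in DMSO cells. POLR1B, the second largest subunit, had 82.9, 89.4 and 71.6 CPM in the same drug samples, against 91.1 CPM in DMSO cells, and POLR1C, a subunit shared with RNA polymerase III, lay between 87.7 and 89.2 CPM. TCOF1, treacle, and UBTF, both factors of rDNA transcription, had 103 and 105 CPM in 13cRA cells, 58.7 and 68.9 CPM in doxazosin cells, and 62.5 and 60.7 CPM in 13cRA+doxazosin cells, against 76.0 and 75.5 CPM in DMSO cells.

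Of the small subunit genes, RRP9, a U3 snoRNP protein, had 38.9 CPM in 13cRA cells (36.4 to 41.6), 20.1 CPM in doxazosin cells (18.8 to 21.5) and 18.2 CPM in 13cRA+doxazosin cells (17.2 to 19.2), against 19.4 CPM in DMSO cells (18.2 to 20.7). UTP15, a subunit of the early processome, had 20.6 CPM in 13cRA cells (18.8 to 22.6), 37.9 CPM in doxazosin cells (36.1 to 39.7) and 57.7 CPM in 13cRA+doxazosin cells (56.0 to 59.5), against 38.7 CPM in DMSO cells (37.0 to 40.5). In the 13cRA+doxazosin sample 37.6% of the UTP15 counts came from 1 cell. RRP12, an export and processing factor, had 20.6 CPM in 13cRA cells, 9.59 CPM in doxazosin cells and 30.4 CPM in 13cRA+doxazosin cells, against 12.8 CPM in DMSO cells, and 67.9% of its 13cRA+doxazosin counts came from 1 cell. PNO1, a 40S maturation factor, had 50.5, 67.5 and 63.6 CPM in 13cRA, doxazosin and 13cRA+doxazosin cells, against 62.8 CPM in DMSO cells. In the 13cRA sample 26.05% of the PNO1 counts came from 1 cell. HEATR1 lay between 65.5 and 67.1 CPM, but 21.8% of its 13cRA counts came from 1 cell, and without the top cell of each sample it had 52.9 CPM in 13cRA cells, against 65.1 CPM in DMSO cells. UTP20 lay between 114 and 130.5 CPM, WDR43 between 149 and 189 CPM, and BYSL between 104 and 148 CPM.

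Of the large subunit genes, BOP1 of the PeBoW complex (PES1, BOP1 and WDR12, needed to process the precursor of the large subunit) had 115 CPM in 13cRA cells (111 to 120), 45.1 CPM in doxazosin cells (43.2 to 47.1) and 65.4 CPM in 13cRA+doxazosin cells (63.5 to 67.3), against 60.9 CPM in DMSO cells (58.7 to 63.1). PES1 had 55.7 CPM in 13cRA, 62.1 CPM in doxazosin and 43.6 CPM in 13cRA+doxazosin cells, against 43.0 CPM in DMSO cells, with 23.3% of its doxazosin counts in 1 cell. WDR12 had 147, 152 and 160.1 CPM in 13cRA, doxazosin and 13cRA+doxazosin cells, against 139 CPM in DMSO cells. The 3 subunits of that complex thus did not share an order of the samples. RRS1, which loads the 5S particle, had 13.3 CPM in 13cRA, 6.37 CPM in doxazosin and 11.9 CPM in 13cRA+doxazosin cells, against 8.04 CPM in DMSO cells. NOP16, a nucleolar protein of 60S assembly, had 389.8 CPM in 13cRA cells (382 to 398), 280.3 CPM in doxazosin cells (275 to 285) and 309 CPM in 13cRA+doxazosin cells (305 to 313), against 311 CPM in DMSO cells (306 to 316). GNL3, nucleostemin, lay between 152 and 178 CPM, and NIP7 between 101 and 123 CPM. The helicases DDX21 and DDX18 lay between 343 and 377 CPM and between 200.4 and 286 CPM.

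The first comparison asked what 13cRA alone did to these genes. Against DMSO, the members differed in both directions in 13cRA cells, with FBL, BOP1 and RRP9 higher and UTP15 and NHP2 lower. On the log2(CPM + 1) scale 18 of 32 members were higher and 14 lower, against 48.4% and 51.6% of the 9573 genes, and the median of the members was 0.10 beside −0.02 over all genes. At least 1.5-fold higher were 5 members (RRP9, BOP1, FBL, RRS1 and RRP12), against 14.4% of all genes, and at least 1.5-fold lower was 1 member (UTP15), against 13.2% of all genes. The 3 highest log2 differences were 0.97 for RRP9 (0.87 to 1.14), 0.91 for BOP1 (0.84 to 1.00) and 0.88 for FBL (0.84 to 0.92). The lowest were −0.88 for UTP15 (−1.06 to −0.76) and −0.57 for NHP2 (−0.63 to −0.51), followed by PNO1 and WDR43 at −0.31 each. Without the top cell of each member and sample RRP12 stood at 0.37 and was no longer 1.5-fold higher, and PNO1 stood at −0.70. Under edgeR's TMM factors, which moved the median of all genes to −0.34, FBL stayed higher at 0.54, BOP1 at 0.58 and RRP9 at 0.64, while UTP15 stood at −1.20 and NHP2 at −0.90. The median of the members then turned to −0.23, with 24 of 32 (75%) lower, against 73.4% of all genes under the same factors, so its direction depends on the scaling. The members' median lay 0.13 above that of all genes on CPM and 0.11 above it on TMM factors.

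Doxazosin alone gave smaller differences. In doxazosin cells 9 members were higher than in DMSO cells and 23 lower, against 46% and 54% of all genes, and the median was −0.08 beside −0.02 over all genes. No member was past 1.5-fold in either direction, against 3.43% of all genes higher and 3.99% lower. The lowest were BOP1 at −0.42 (−0.51 to −0.35), RRP12 at −0.38 and TCOF1 at −0.37 (−0.44 to −0.30), with FBL at −0.32 and NCL at −0.31. The highest were PES1 at 0.52 (0.45 to 0.61) and WDR12 at 0.13, with NHP2 and PNO1 at 0.10. Without the cell that held the most of its counts in each sample, PES1 stood at 0.19. With DESeq2's size factors 17 of 32 members (53.1%) were lower in doxazosin cells, in place of 23, against 47.3% of all genes under the same factors. When cells were thinned to 34000 counts 17 were lower, against 52.0% of all genes. By the mean of per-cell CPM 19 were lower, against 52.5%.

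In 13cRA+doxazosin cells, POLR1B, UBTF and TCOF1 of the RNA polymerase I genes and all 3 box C/D genes were below their DMSO levels. POLR1B stood at −0.34 (−0.41 to −0.29), UBTF at −0.31 and TCOF1 at −0.28, while POLR1A (−0.09 to 0.06) and POLR1C (−0.07 to 0.04) lay at −0.01 each, within counting error of 0. The box C/D genes had a median of −0.16, with NOP56 lowest at −0.41 and NOP58 at −0.06 (−0.09 to −0.03). Under TMM and DESeq2 factors the 5 polymerase I and the 3 box C/D genes all had values below 0. Of 11 other RNA polymerase I genes, outside the members, 6 were higher and 5 lower, with a median of 0.06. Of all 32 members 11 were higher and 21 lower, against 47.3% and 52.7% of all genes, and the median was −0.04 beside −0.02 over all genes. Under TMM factors 25 members were lower, against 55.1% of all genes, and under DESeq2 factors 26, against 58.5%. By the mean of per-cell CPM 17 members (53.1%) were lower, against 52.0% of all genes. When cells were thinned to 34000 counts 17 were lower, against 51.5% of all genes. In thinned cells with 4000 to 4600 genes 25 were lower, against 52.7%. The count of lower members thus depends on how cells are weighted and chosen. Past 1.5-fold were 1 member higher (RRP12), against 7.41% of all genes, and 0 members lower, against 7.46%. The highest differences were RRP12 at 1.19, UTP15 at 0.56 (0.50 to 0.66) and RRS1 at 0.51. Without the top cell of each member and sample, RRP12 stood at −0.25 and UTP15 at −0.03, so the direction of both rests on 1 cell. The lowest were MYBBP1A at −0.54, NOP56 at −0.41 and NCL at −0.37 (−0.39 to −0.36).

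**Figure D2:**
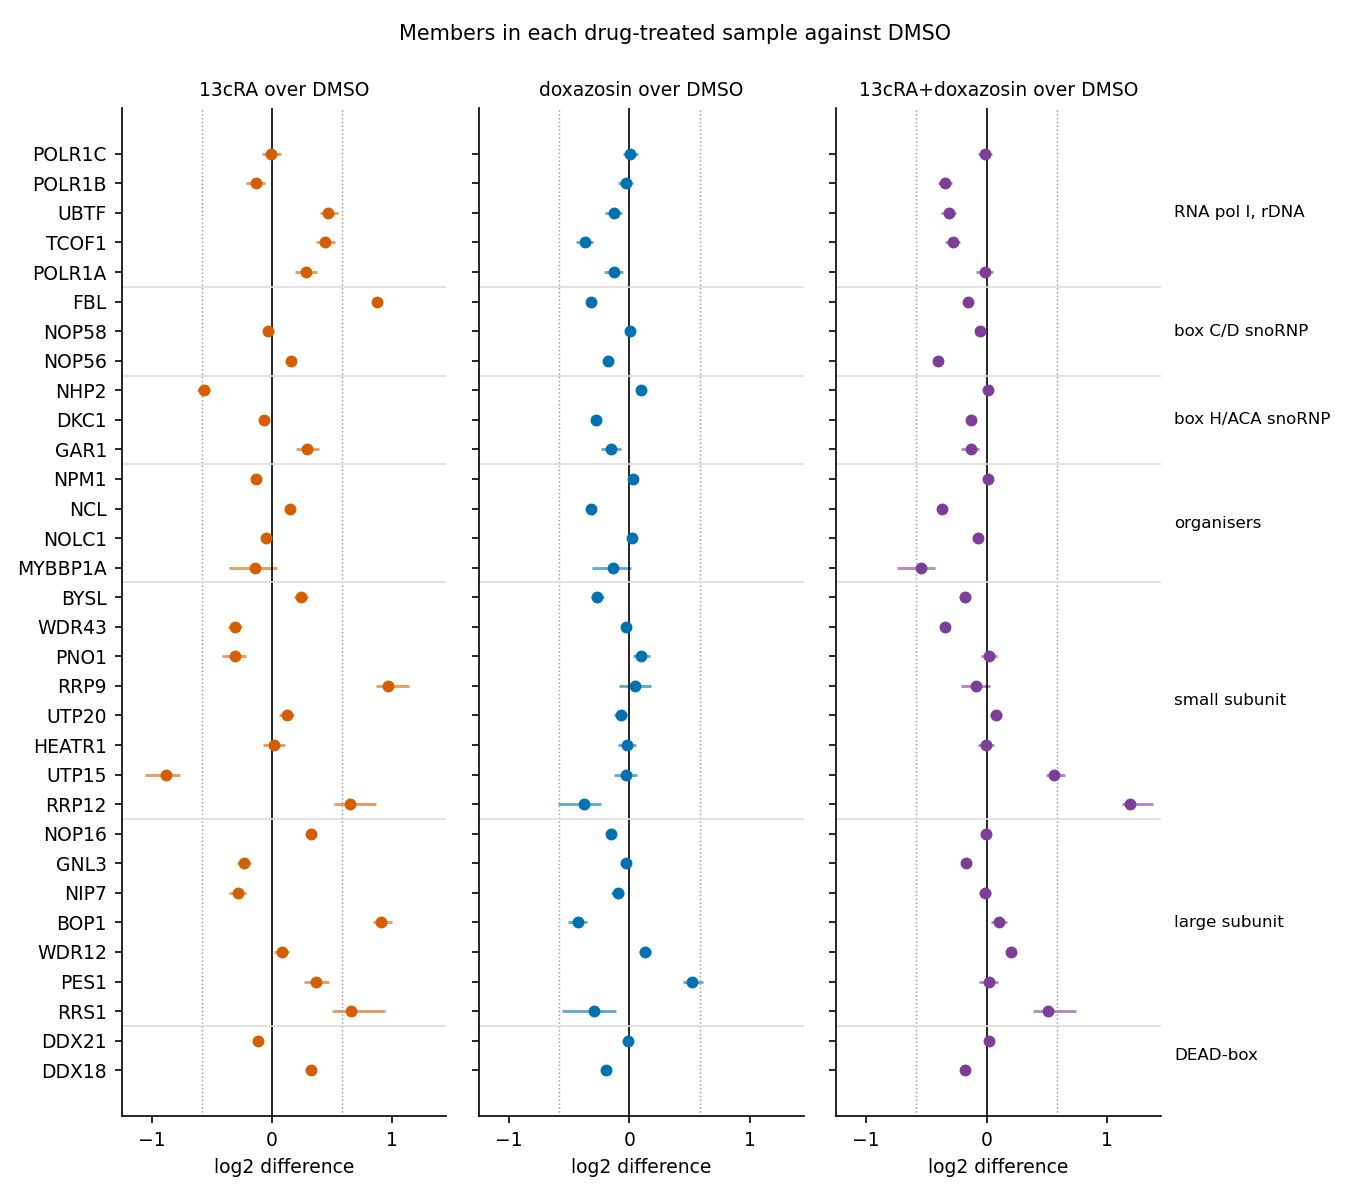
Log2 difference of each of the 32 compared members in 13cRA, doxazosin and 13cRA+doxazosin cells over DMSO cells, grouped by role; lines are 95% counting intervals and dotted lines mark 1.5-fold. RRP9, BOP1 and FBL stand at 0.97, 0.91 and 0.88 in the 13cRA panel, and POLR1B, UBTF and TCOF1 lie below 0 in the 13cRA+doxazosin panel, with POLR1A and POLR1C at −0.01.

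With doxazosin added to 13cRA, FBL, RRP9 and BOP1 were lower than with 13cRA alone. In 13cRA+doxazosin cells 9 members were higher and 23 lower than in 13cRA cells, against 49.3% and 50.7% of all genes, and the median was −0.11 beside −0.01. At least 1.5-fold lower were 5 members, against 14.2% of all genes, namely RRP9 at −1.06, FBL at −1.03, BOP1 at −0.81, UBTF at −0.78 and TCOF1 at −0.72. At least 1.5-fold higher was 1 member, UTP15 at 1.44, against 12.8% of all genes, and it stood at 1.01 without the top cells. Under TMM factors the median of the members turned to 0.19 and that of all genes to 0.29, with 13 members lower in place of 23, against 28.98% of all genes, while FBL, RRP9 and BOP1 stayed lower at −0.72, −0.75 and −0.50. Since this comparison and that of 13cRA with DMSO share the 13cRA sample, low values in one and high values in the other are not independent.

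Adding 13cRA to doxazosin left the members about level. In 13cRA+doxazosin cells 17 were higher and 15 lower than in doxazosin cells, against 49.3% and 50.7% of all genes, with medians of 0.01 for the members and −0.01 for all genes. Under TMM factors 19 members (59.4%) were lower, against 55.5% of all genes, and under DESeq2 factors 23 (71.9%), against 62.0%. At least 1.5-fold higher were 3 members, against 8.32% of all genes, namely RRP12, RRS1 and UTP15, and without their top cells 0 members were. No member was at least 1.5-fold lower, against 6.39% of all genes. BOP1 stood at 0.52 (0.46 to 0.61) and PES1 at −0.50 (−0.58 to −0.44).

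Fewer 13cRA than DMSO cells held a count of most members, at a share near that of all genes. At 34000 counts per cell, 28 of the 32 members had a count in a smaller share of 13cRA than of DMSO cells and 3 in a larger share, beside 85.2% of the 9573 genes in a smaller share and 14.0% in a larger one. In 15 members the CPM was higher and the share of cells smaller. The same count over all genes was not made, so this is not shown to be a trait of the members. For PNO1 the share was 40.2% in 13cRA cells (exact interval 34.0% to 46.5%), against 66.2% in DMSO cells (60.8% to 71.3%), and unthinned 46.2% against 78.2%. For NIP7 it was 59.0% in 13cRA cells (52.6% to 65.2%), against 81.7% in DMSO cells (77.1% to 85.7%), and unthinned 58.8% against 89.0%. For UTP15 it was 21.7% in 13cRA cells (16.7% to 27.3%), against 43.0% in DMSO cells (37.6% to 48.5%), and unthinned 25.2% against 53.5%. POLR1C, with nearly equal CPM in both samples, had a share of 52.6% in 13cRA and 73.8% in DMSO cells. The largest gain was that of BOP1, seen in 75.9% of 13cRA against 67.1% of DMSO cells, although unthinned the shares were 76.7% and 79.3%. These cells were the ones with fewest genes, and the part of that in the shares was not tested. In doxazosin cells 20 members had a smaller share and 11 a larger one, beside 44.9% and 53.8% of all genes. The median difference from DMSO over the members was −5.49 percentage points in 13cRA, −0.81 points in doxazosin and −1.38 points in 13cRA+doxazosin cells, beside −7.63, 0.36 and −0.29 points over all genes. All these comparisons share the DMSO sample.

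**Figure D3:**
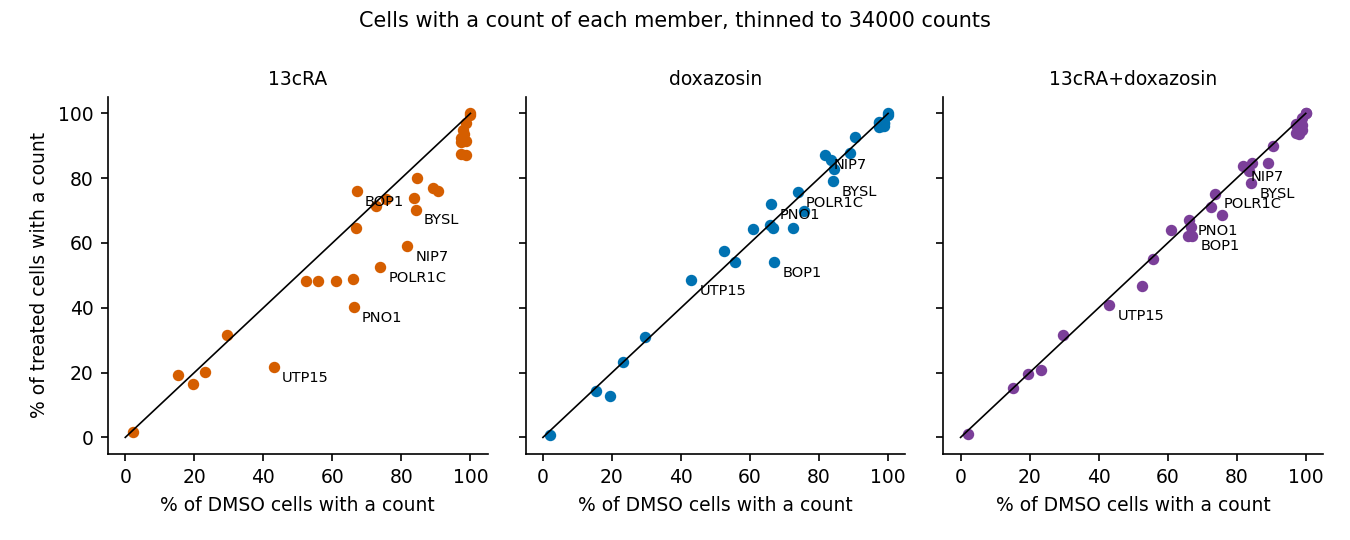
Share of cells with at least 1 count of each member at 34000 counts per cell, in each drug sample (vertical) and in DMSO (horizontal), in percent, with the line of equality. Most points lie below the line in the 13cRA panel, with PNO1 at 40.2% against 66.2%, and close to it in the other panels.

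A score per cell, the mean over the 33 members of log2(CPM/10 + 1) at 34000 counts, had medians of 2.998 in 13cRA, 3.07 in doxazosin and 3.07 in 13cRA+doxazosin cells, against 3.11 in DMSO cells. Above the DMSO median were 36.9% of 13cRA cells (30.9% to 43.3%, exact), 46.0% of doxazosin cells (39.5% to 52.6%) and 43.0% of 13cRA+doxazosin cells (37.0% to 49.1%). By the summed share of a cell's counts that came from the 33 members, in place of the mean of logs, 62.2% of 13cRA cells (55.9% to 68.3%) were above the DMSO median, with 38.7% of doxazosin and 37.4% of 13cRA+doxazosin cells, so the direction in 13cRA cells depends on the measure. The score over all 9573 genes put 0% of 13cRA cells above the DMSO median, which allows up to 1.47%, beside 62.6% of doxazosin and 52.2% of 13cRA+doxazosin cells. Among cells with 4000 to 4600 genes the share for the members was 54.9% in 13cRA, 36.6% in doxazosin and 30.6% in 13cRA+doxazosin cells. That range held 91, 41 and 85 cells of these samples and 99 DMSO cells, whose own median was used. The upper quartile of genes was 4125 in 13cRA cells and the lower quartile 4485 in DMSO cells. By genes, the range thus takes the upper part of the 13cRA cells and the lower part of the DMSO cells. The 3 box C/D genes alone were above the DMSO median in 58.2% of 13cRA cells (51.8% to 64.4%), 34.0% of doxazosin cells (28.0% to 40.5%) and 31.9% of 13cRA+doxazosin cells (26.3% to 37.8%). The 8 small subunit genes were above it in 28.9% of 13cRA cells (23.4% to 35.0%), with 46.4% and 47.4% of doxazosin and 13cRA+doxazosin cells. These roles had the highest and the lowest share in 13cRA cells, the other roles lying between 36.9% and 47.0%. Ribosome biogenesis genes outside the members were above their own DMSO median in 14.9% of 13cRA, 45.1% of doxazosin and 47.4% of 13cRA+doxazosin cells. For MYC targets outside the nucleolus the shares were 9.24%, 48.9% and 34.1%.

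**Figure D4:**
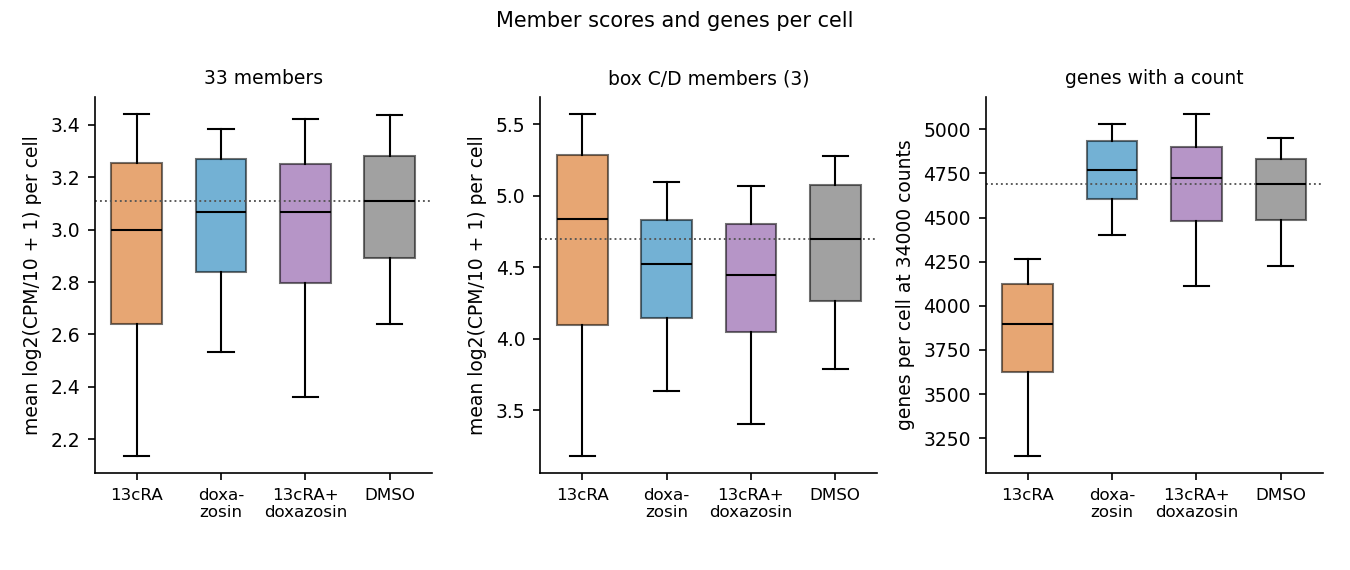
Score per cell over the 33 members and over the 3 box C/D members, in mean log2(CPM/10 + 1), and genes per cell at 34000 counts; boxes span the quartiles, whiskers the 10th to 90th percentiles, and the dotted line is the DMSO median. The box C/D median is above the dotted line in 13cRA cells and below it in the other drug samples, and 13cRA cells have the fewest genes, 3896.

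MYCN, the driver assumed in choosing these genes, had 1168 CPM in 13cRA cells, 759 CPM in doxazosin cells and 815 CPM in 13cRA+doxazosin cells, against 759.6 CPM in DMSO cells. MYC was at most 1.49 CPM. Within each sample, the members followed MYCN hardly at all from cell to cell. The median Spearman rho of the 32 members with MYCN was 0.00 over 249 13cRA cells, 0.02 over 235 doxazosin cells, 0.04 over 270 13cRA+doxazosin cells and 0.03 over 328 DMSO cells, beside −0.01, −0.01, 0.00 and 0.00 for all genes, and these weak values in sparse counts are no finding. The score of the 33 members had a rho with MYCN of −0.03, 0.07, 0.12 and 0.08 in the same order. In the third of cells with the most MYCN the median score was 2.92 in 13cRA, 3.07 in doxazosin, 3.08 in 13cRA+doxazosin and 3.12 in DMSO cells, against 2.96, 2.99, 3.01 and 3.08 in the third with the least MYCN. The score went more with genes per cell, at rho 0.48, 0.32, 0.42 and 0.23, and with the S phase score, at 0.56, 0.36, 0.54 and 0.28, in 13cRA, doxazosin, 13cRA+doxazosin and DMSO cells. With the score over all tested genes the rho was 0.57, 0.39, 0.49 and 0.27 in the same order, near that with the S phase score. With the score of G2M phase genes it was 0.54, 0.17, 0.38 and 0.11. A relation particular to S phase genes is thus not shown. The cells share a library, depth and chemistry, so these relations are descriptions.

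**Figure D5:**
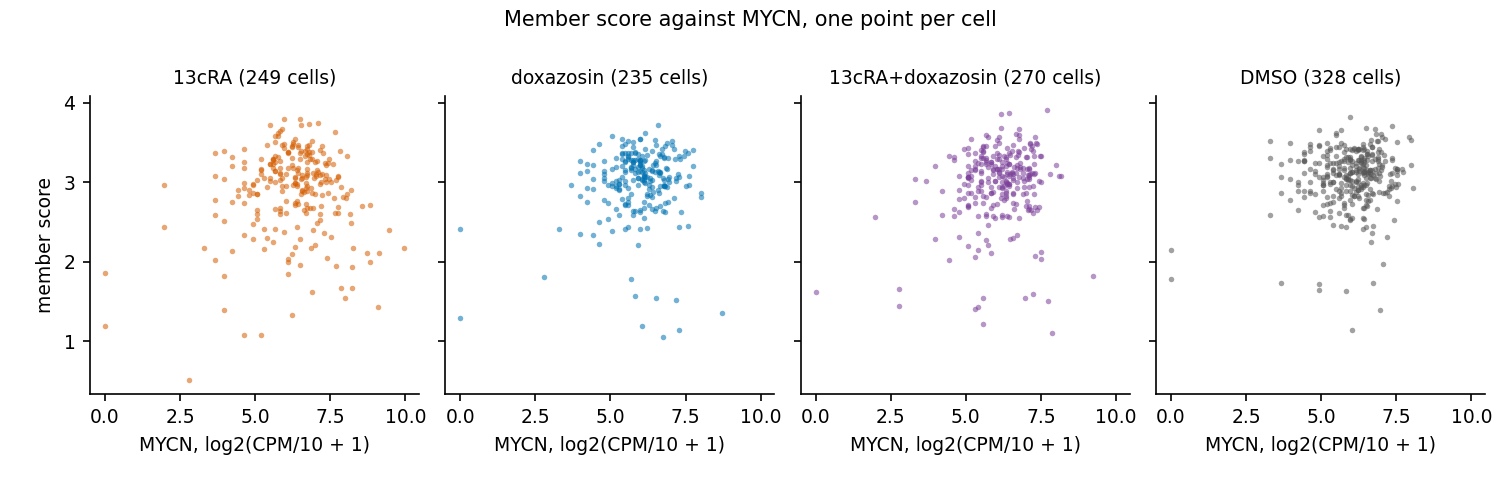
Score over the 33 members against MYCN, in log2(CPM/10 + 1), 1 point per cell thinned to 34000 counts, in the 4 samples. The clouds show little slope in any panel, with rho between −0.03 and 0.12.

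The median rho of each member with the score of the others was 0.18 in 13cRA, 0.13 in doxazosin, 0.18 in 13cRA+doxazosin and 0.09 in DMSO cells. For tested genes outside the members, the median rho with the member score was 0.07, 0.05, 0.06 and 0.03 in the same order. Members and other genes were not matched for level, and the part of genes per cell was not tested. A score averages many genes, so these values cannot be set against those with MYCN, a single gene. Of all genes outside the members, those with the highest mean rho with the score over the 4 libraries were MCM7 at 0.33, MCM4 at 0.33, DDX1 at 0.33, MCM3 at 0.31 and CDC6 at 0.30. The MCM genes and CDC6 encode replication licensing proteins, and DDX1, a helicase gene beside MYCN on chromosome 2, stood at 48019 to 55336 CPM.

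Members with and without CACGTG in the promoter window were set side by side. In 13cRA cells the 11 tested members with it were 6 higher and 5 lower than in DMSO cells, with a median of 0.12, and the 14 without it were 7 higher and 7 lower, with a median of 0.01. In 13cRA+doxazosin cells the medians were −0.13 with it and −0.01 without it, and in doxazosin cells −0.03 and −0.06. Over all tested genes with a window, the medians with and without it were −0.04 and −0.03 in 13cRA, −0.07 and −0.02 in 13cRA+doxazosin and −0.04 and −0.02 in doxazosin cells. In 13cRA+doxazosin over 13cRA cells the members' medians were −0.35 with it and −0.05 without it. Those of all tested genes were −0.01 and −0.0007. In 13cRA+doxazosin over doxazosin cells the members stood at −0.08 and −0.003, and all tested genes at −0.03 and −0.003. None of these contrasts was tested.

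Other genes of the same pathway gave the frame. Of all 9573 genes 51.6% were lower in 13cRA, 54% in doxazosin and 52.7% in 13cRA+doxazosin cells than in DMSO cells. The median of all genes was −0.02 in each drug sample. Of 40 other small subunit genes 24 were lower in 13cRA, 29 in doxazosin and 28 in 13cRA+doxazosin cells than in DMSO cells, with medians of −0.10, −0.11 and −0.07, and the largest differences with both drugs were NOP14 at −0.68, AATF at −0.62 and NOC4L at −0.58. Of 45 other large subunit genes 24, 33 and 30 were lower, with medians of −0.03, −0.13 and −0.10, and WDR18 at −1.003, RRP1 at −0.93 and URB2 at −0.65 led with both drugs. Of 11 other RNA polymerase I genes 3, 4 and 5 were lower, with medians of 0.21, 0.07 and 0.06. Under TMM factors 8 were lower in 13cRA cells, against 73.4% of all genes, with a median of −0.12. TAF1C at 0.75, TTF1 at −0.60 and POLR1H at 0.46 differed most with both drugs. Of 25 MYC targets outside the nucleolus 17, 16 and 20 were lower, with medians of −0.17, −0.03 and −0.15, led with both drugs by SHMT1 at −0.51, RANBP1 at −0.47 and CAD at −0.38. S phase genes stood further from their DMSO levels, 39, 33 and 38 of 42 being lower, with medians of −0.64, −0.13 and −0.38. Of 82 cytosolic ribosomal protein genes, the products that the members assemble, 69 were higher in 13cRA and 72 in 13cRA+doxazosin cells, with medians of 0.20 and 0.14. Of all genes 48.4% and 47.3% were higher in these samples. Under TMM factors 65 of the 82 were lower in 13cRA cells, against 73.4% of all genes, with a median of −0.13. Under DESeq2 factors 58 were lower, against 71.2% of all genes, so that direction depends on the scaling. In 13cRA+doxazosin cells the medians were 0.12 and 0.09 under TMM and DESeq2 factors. The medians of the small subunit, large subunit and S phase lists were below 0 under all 3 scalings in each drug sample. On CPM, TMM and DESeq2 factors the median of all genes was −0.02, −0.34 and −0.31 in 13cRA cells. It was −0.02, −0.04 and −0.07 in 13cRA+doxazosin cells, and −0.02, −0.01 and 0.02 in doxazosin cells. The large subunit list stood at −0.36 in 13cRA cells under TMM factors, near that of all genes. The median of the MYC targets in doxazosin cells was −0.01 with TMM and 0.02 with DESeq2 factors.

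The 24 snoRNAs annotated within the spans of 7 of the members were hardly counted. Of these, 10 had any count, and the largest sum was 23 counts over all cells, so their levels could not be set beside those of their host genes.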

How the data were processed

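CHP134 single cells of 4 treatments, 1 sample each, were sequenced as full-length cDNA on an ICELL8 system. The authors deposited a table of read counts per gene and cell, per the file headers. Per the submitters' processing notes, the tools were STAR 2.7.8a, featureCounts, fastp 0.23.3, Seurat 4.3.0 and bcl2fastq, with builds GRCh38.p13 and GRCh37 named without a role. No source used here gives the strand setting, the annotation release or the handling of reads shared by overlapping genes. GENCODE 29 supplied exon lengths and overlaps, and RefSeq (GRCh38.p14) the promoters.

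Cells with at least 500 genes and at most 25% mitochondrial counts were kept, 1197 of 1287. No doublet caller was run. Counts were summed per treatment, scaled to CPM and compared as log2(CPM + 1) for genes with a mean of at least 5 CPM. Printed intervals of levels, differences and shares are exact Poisson or binomial at 95%. For medians, binomial ranks over the members gave an interval of their spread, used only to sort the recomputed values below. Per-cell values used cells thinned to 34000 counts. TMM factors came from edgeR 4.0.16 and size factors from DESeq2 1.42.0, as alternatives only. The log2 differences, thinning and rank correlations were tested on simulated data. Python 3.11.15, scanpy 1.11.5 and R 4.3.3 were used.

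The named members are the 6 with the highest CPM per kb in DMSO and the 3 highest and 3 lowest log2 differences in each comparison with DMSO. The others are given by range. Single values are also given for POLR1A, POLR1B, UBTF, POLR1C, HEATR1, NIP7, NOP58 and WDR43, which lie outside that rule and were chosen after their values were seen. The members and lists were chosen with earlier results of these data known. Besides CACGTG and CACGCG, a motif of the factor NRF1 was searched in the promoter windows; its counts are not reported here.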

Additional observations from a re-analysis of the deposited data

Results flagged for a closer look

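The log2 difference of RRP9 with doxazosin was −1.06 in cells that also received 13cRA (13cRA+doxazosin over 13cRA) and 0.05 in cells that did not (doxazosin over DMSO), opposite in direction. That of UTP15 was 1.44 with 13cRA and −0.03 without it. These opposite directions, with one of the differences at least 1 on the log2 scale, drew attention to both genes; that size was set after the members' values had been seen. Under DESeq2 size factors the difference of UTP15 without 13cRA was 0.01, and the 2 directions were then no longer opposite. Each direction rests on 1 sample a treatment, and the difference between them was not tested. The 0.05 of RRP9 has a counting interval of −0.08 to 0.18. Without the cell that held the most counts of the gene in each sample, RRP9 stood at −0.96 with 13cRA and −0.03 without it, no longer opposite, and UTP15 stood at 1.01 in cells that also received 13cRA.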

How the results depend on the processing

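No paired analysis was possible because each treatment has 1 sample. Of 321 recomputed summary values 255 stayed within the main value's interval, or within 1.5 times a main count, 59 lay outside it and 7 changed direction outside it, and the cause was not tested. For medians that interval came from ranks over the members and is their spread, so staying within it is no check between samples. For the median log2 difference in 13cRA against DMSO it ran from −0.12 to 0.32. In 13cRA against DMSO the median of all genes was −0.02 on CPM, −0.34 on TMM scaling and −0.31 on DESeq2 scaling. The share of all genes past 1.5-fold was worked out for the main setting only. The counts of members past 1.5-fold in this section thus stand without that share and are no result about the members. For 13cRA against DMSO the members' median turned to −0.23 with TMM factors (24 lower, 5 past 1.5-fold lower, 1 higher) and to −0.19 with DESeq2 size factors (4 past 1.5-fold lower, 2 higher). For 13cRA+doxazosin against 13cRA it turned to 0.19 with TMM factors (13 lower, 2 past 1.5-fold lower, 4 higher). With DESeq2 size factors it turned to 0.13 (14 lower, against 33.5% of all genes, with 2 past 1.5-fold lower and 3 higher). In the 16 and 18 cells called G1 it turned to 0.16 (13 lower, against 49.1% of all genes, with 8 past 1.5-fold lower and 6 higher). With DESeq2 size factors 1 member was past 1.5-fold lower in 13cRA+doxazosin against DMSO, and against doxazosin 23 were lower and 1 past 1.5-fold. In cells with 4000 to 4600 genes the median was −0.19 for 13cRA+doxazosin against DMSO (2 past 1.5-fold lower, 0 higher) and turned to −0.10 against doxazosin (1 lower, 0 higher). In that range 9 members were lower in 13cRA against DMSO, against 48.2% of all genes (0 past 1.5-fold lower, 3 higher). There 1 was past 1.5-fold lower with doxazosin against DMSO, and 10 were so in 13cRA+doxazosin against 13cRA (0 higher). In cells with 34000 to 120000 counts 4 members were past 1.5-fold lower and 2 higher in doxazosin against DMSO, 1 was lower in 13cRA+doxazosin against DMSO, and the median against doxazosin was 0.13.

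Members past 1.5-fold higher numbered 3 in 13cRA against DMSO with a pseudocount of 5 CPM, with a mean of at least 20 CPM and with no cell filter (2 lower). In 13cRA+doxazosin against DMSO they numbered 2 by the mean of per-cell CPM and 0 without cells over 9000 genes, at a mean of at least 20 CPM or without the top cell of each member. Against 13cRA they numbered 2 by the mean of per-cell CPM and without cells over 9000 genes, and 3 with no cell filter or without top cells. Against doxazosin they numbered 1 with a pseudocount of 5 CPM, without cells over 9000 genes, at a mean of at least 20 CPM and when thinned to 34000 counts, and 0 without top cells. Without top cells 2 members were past 1.5-fold lower in 13cRA against DMSO. Leaving out top cells, and the counts of members past 1.5-fold higher, were chosen after seeing the data.

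The share of 13cRA cells above the DMSO median score was 30.2% unthinned, 54.9% in cells with 4000 to 4600 genes and 19.7% by members with a count per cell, and in that range of genes it was 36.6% for doxazosin and 30.6% for 13cRA+doxazosin cells. The median rho with MYCN was 0.10 in 18 G1 cells and 0.0293 by Pearson's r in 13cRA, 0.0100 in 16 G1 cells and 0.0906 at 4000 to 4600 genes in 13cRA+doxazosin, and turned to −0.0477 at 4000 to 4600 genes in DMSO cells. RRP12 in 13cRA+doxazosin against DMSO turned to −0.31 without cells over 9000 genes, −0.35 in cells with 34000 to 120000 counts, −0.34 at 4000 to 4600 genes and −0.25 without top cells. Only 4 DMSO and 2 doxazosin cells were called G1, under the 10 required, so that alternative was not run where they enter. The minimum of 10 cells was set after these cell counts were known. The 13cRA library had 22636509 counts and 69 cells too shallow to thin, and 1 sample a treatment limits every comparison.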
